A study of Mus musculus with 96 samples.

Results

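The genes described here encode the nuclear part of oxidative phosphorylation in single leukemic spleen cells of the mouse. They were the rows of the TPM table (transcripts per 1000000, an abundance scaled for transcript length and to a fixed total in each cell) whose symbol began with Nduf, Sdh, Uqcr or Atp5, or with Cox followed by a digit from 4 to 8, and whose mean over all 96 cells was 1 TPM or more. Of 23955 genes in the table, 94 had such a symbol and 89 passed the mean. The 89 genes were thus selected on their measured mean TPM, so their level is a description. The nearest genes inside the limit were Ndufaf5 at 4.90 TPM, Ndufaf6 at 5.27 TPM and Sdhaf1 at 6.80 TPM, and the 5 genes outside it, Cox6a2, Cox7b2, Cox8b, Cox8c and Ndufa4l2, were listed at 0 in every cell. The prefixes took in 78 subunits of the 5 complexes, with 37 in complex I, 4 in complex II, 8 in complex III, 14 in complex IV and 15 in complex V, and 11 genes that are not subunits, namely 7 assembly factors of complex I, 2 of complex II, and Atp5s and Atp5sl.

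Spleens of 2 mice, both moribund from acute myeloid leukemia, gave 48 cells each, and every library was made from 1 cell. Both animals carried Flt3ITD/ITD, an activating internal duplication in a receptor kinase of blood progenitors, and Dnmt3afl/- with MxCre, in which an interferon-inducible promoter drives Cre to remove the remaining floxed copy of a DNA methyltransferase gene. Splenocytes were enriched with beads against CD117 (c-Kit), a progenitor receptor, and captured on a Fluidigm C1 chip. Other genotypes were not analysed here, and the values cannot be read as effects of Flt3 or Dnmt3a. Each mouse was 1 capture round, with its own column prefix and its own sex, and these cannot be told apart. No ages are stated in the labels. Cells of 1 animal are not replicates, so the differences are given without a test, with the spread over cells beside them.

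Oxidative phosphorylation passes electrons from NADH through complex I, or from succinate through complex II, to coenzyme Q, then through complex III and cytochrome c to complex IV, which reduces oxygen. Complexes I, III and IV pump protons across the inner mitochondrial membrane, and complex V, the ATP synthase, uses the gradient to make ATP. Complex II is built from nuclear genes alone, while the others also contain subunits encoded in the mitochondrial genome; the table held 0 rows of mitochondrially encoded genes. Human acute myeloid leukemia stem cells are known for their reliance on this pathway.

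Many nuclear genes of the pathway are known targets of NRF1, of ETS-family factors such as GABP, and of YY1, and the promoters of 4 members are shown for that reason. Cox6a1 had the highest level of all members, Sdha is the catalytic subunit of complex II, Uqcr11 was the member furthest below the remaining cells in the S100a8-high cells, and Ndufb4 had several NRF1 matches and is a membrane-arm subunit of complex I. Each sequence is the RefSeq promoter on build GRCm38.p6, 250 bases before the annotated start and the first 10 bases from it, 5′ to 3′ on the gene's own strand, which is the minus strand for all 4. Capitals mark matches, on either strand, to GCGCANGCG (NRF1), CCGGAAG (ETS) or CCAAT; no match to ATGGCGG (YY1) lay in these windows, and the 2 upstream NRF1 matches of Cox6a1 overlap. Cox6a1 is at chr5:115348949-115349208, Ndufb4 at chr16:37654359-37654618, Sdha at chr13:74350231-74350490 and Uqcr11 at chr10:80406812-80407071.
Cox6a1: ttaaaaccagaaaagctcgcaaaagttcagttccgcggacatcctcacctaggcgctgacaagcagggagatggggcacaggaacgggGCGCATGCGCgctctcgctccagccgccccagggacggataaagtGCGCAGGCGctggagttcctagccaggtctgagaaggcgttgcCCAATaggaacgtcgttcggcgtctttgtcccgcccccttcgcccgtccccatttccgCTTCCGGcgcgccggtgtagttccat
Ndufb4: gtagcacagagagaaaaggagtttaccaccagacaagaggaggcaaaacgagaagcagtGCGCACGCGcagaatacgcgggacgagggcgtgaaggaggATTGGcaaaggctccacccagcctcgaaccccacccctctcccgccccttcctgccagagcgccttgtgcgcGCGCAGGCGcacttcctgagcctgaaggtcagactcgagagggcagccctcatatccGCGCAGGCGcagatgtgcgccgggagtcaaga
Sdha: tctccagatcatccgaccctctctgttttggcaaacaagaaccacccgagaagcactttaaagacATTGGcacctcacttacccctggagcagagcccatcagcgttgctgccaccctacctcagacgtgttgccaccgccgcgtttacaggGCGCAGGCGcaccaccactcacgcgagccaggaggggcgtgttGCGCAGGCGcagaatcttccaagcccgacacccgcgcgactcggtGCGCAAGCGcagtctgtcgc
Uqcr11: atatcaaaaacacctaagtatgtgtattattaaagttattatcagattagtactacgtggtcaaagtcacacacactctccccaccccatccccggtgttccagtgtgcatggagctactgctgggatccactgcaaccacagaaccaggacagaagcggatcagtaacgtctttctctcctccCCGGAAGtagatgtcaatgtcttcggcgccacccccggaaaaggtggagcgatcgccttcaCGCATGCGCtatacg
Of the 89 members, 76 had an entry in the promoter table, 3 of them through a synonym, and 59 of the 76 held 1 or more of the 4 motifs in the full window of 300 bases. The NRF1 letters were in 22 of 76 members (28.9%), against 7.03% of the 27025 genes with an entry, 15.99% of those at a mean of 1 TPM or more in these cells and 18.2% of those at 100 TPM or more. The YY1 letters were in 13 members (17.1%), against 4.69%, 10.1% and 10.4% of the same groups. For the ETS letters the members' share of 25% stood beside 9.93%, 21.5% and 25.2%, and for CCAAT the share of 44.7% stood beside 41.1%, 43.2% and 45.7%. The 22 members with an NRF1 match had a median level of 300.2 TPM and the 54 without had 239 TPM, and their median differences between the mice were -0.64 and -0.71 on the log2(TPM + 1) scale.

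The members were abundant transcripts that nevertheless dropped out of many single cells. Their mean levels ran from 4.90 to 1490.5 TPM with a median of 258 TPM, against a median of 18.3 TPM for the 11015 genes whose mean was at least 1 TPM. The median of the subunits' mean levels was 509 TPM in complex V, 371 TPM in complex IV, 355 TPM in complex III, 213 TPM in complex I and 210 TPM in complex II, and the 11 genes that are not subunits had a median of 15.7 TPM. No member reached 1 TPM in all 96 cells; 73 of 89 did so in at least 48 cells, and 8 did so in fewer than 24, of which 6 were not subunits. The standard deviation over the cells of 1 mouse ran from 0.93 to 4.03 log2 units in mouse 1 and from 0.76 to 4.03 in mouse 2. Many of these genes have processed pseudogenes, and the rule by which reads were divided between a gene and its copies was not stated.

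**Figure D1:**
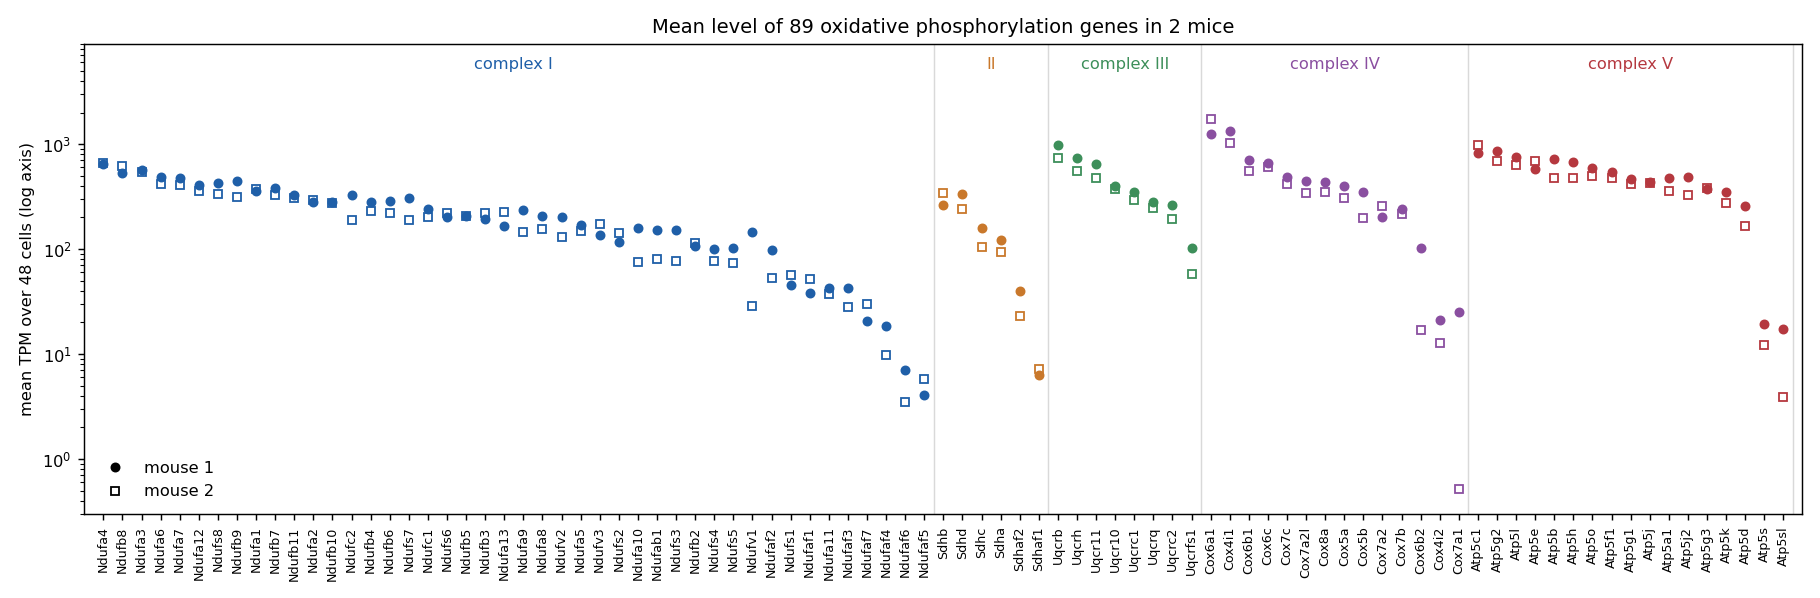
Mean TPM over the 48 cells of each mouse (log axis) for each of the 89 genes, ordered by level within each complex, with filled circles for mouse 1 and open squares for mouse 2. Cox6a1 and Cox4i1 stood highest, at 1490.5 and 1183 TPM over all cells, the genes that are not subunits stood lowest, and Cox7a1 had 25.3 TPM in mouse 1 and 0.521 TPM in mouse 2.

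In complex I the most abundant members were Ndufa4, Ndufb8 and Ndufa3, named as accessory subunits, which surround the catalytic core. Ndufa4 had a lowest, median and highest value of 0, 631 and 2011 TPM in mouse 1 and of 0, 534 and 3417 TPM in mouse 2. It keeps its old complex I name here, although its protein is now placed with complex IV. Ndufb8 had 0, 508 and 3001 TPM in mouse 1 and 0, 408 and 5493 TPM in mouse 2, and Ndufa3 had 0, 571 and 2460 TPM and 0, 351 and 4059 TPM (the lowest, median and highest in each mouse). The ranges of the mice overlapped almost wholly for all 3.

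The 4 subunits of complex II were lower and more often missing. Sdhb, the iron-sulfur subunit, had 0, 199.6 and 1145 TPM in mouse 1 and 0, 142 and 2145 TPM in mouse 2. Sdhd and Sdhc, the membrane anchors, had medians of 253 and 105 TPM in mouse 1 and of 119 and 26.5 TPM in mouse 2. Sdha, the flavoprotein that oxidizes succinate, had medians of 20.4 and 18.8 TPM and reached 10 TPM in 28 of 48 and 26 of 48 cells. Its mean of 109 TPM over all cells therefore rested on its upper cells, which reached 999.5 TPM in mouse 1 and 1116 TPM in mouse 2.

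Some members of complexes III and IV were detected in most cells. Uqcrb, which binds coenzyme Q within complex III, had 69.5, 850.1 and 3285 TPM in mouse 1 and 0, 688 and 3006 TPM in mouse 2, and reached 10 TPM in 48 and 46 of 48 cells. Uqcrh, the hinge protein that contacts cytochrome c1, had medians of 749 and 287 TPM in the mice. Cox4i1, the general form of a regulatory subunit of cytochrome c oxidase, had 145, 1089 and 3012 TPM in mouse 1 and 0, 995 and 2847 TPM in mouse 2, with a standard deviation over cells of 0.93 log2 units in mouse 1, the lowest of any member there. Cox6a1 had 2.38, 1033 and 4088 TPM in mouse 1 and 0, 1322 and 6206 TPM in mouse 2. Cox6b1, on the side of the enzyme that faces cytochrome c, had medians of 639 and 476 TPM.

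Subunit families with tissue-restricted partners were read almost wholly from the general form. Cox6a2 and Cox8b, forms of heart and skeletal muscle, and Cox7b2, Cox8c and Ndufa4l2 were listed at 0 in all 96 cells, beside Cox6a1 at 1490.5 TPM, Cox8a at 393 TPM, Cox7b at 227 TPM and Ndufa4 at 654 TPM. Cox4i2, the form known from lung, reached 10 TPM in 10 of 48 cells of mouse 1 and 6 of 48 of mouse 2, and had a mean of 16.9 TPM against 1183 TPM for Cox4i1. Cox7a1, the muscle form, reached 10 TPM in 5 cells of mouse 1 and 2 of mouse 2, with a highest cell of 798 TPM in mouse 1, while Cox7a2 had a mean of 229.6 TPM and Cox7a2l, a factor of respiratory supercomplexes, 394 TPM. Cox6b2, known from testis, was the exception in how often it was seen. It reached 10 TPM in 25 of 48 cells of mouse 1, with 0, 25.3 and 1074 TPM as the lowest, median and highest value, and in 11 of 48 cells of mouse 2, with 0, 0 and 179 TPM.

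Complex V was led by Atp5c1, the central stalk subunit, by Atp5g2 and by Atp5l. Atp5c1 had 0, 846 and 2087 TPM in mouse 1 and 4.29, 859 and 3443 TPM in mouse 2, and Atp5l had 0, 788 and 2290.4 TPM and 3.76, 594 and 2037 TPM. The membrane ring of the enzyme is made of subunit c, and 3 genes, Atp5g1, Atp5g2 and Atp5g3, encode the same mature protein. Their mean levels were 443, 774 and 378 TPM. All 3 reached 10 TPM in the same cell in 39 of 48 cells of mouse 1 and 30 of 48 of mouse 2, and 1 cell of mouse 2 had none of them at that level.

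Added up, the 89 genes made up between 1.17% and 5.05% of a cell's TPM. The lowest, median and highest share were 1.83%, 2.87% and 4.43% in mouse 1 and 1.17%, 2.24% and 5.05% in mouse 2, so the lower limit of mouse 2 lay below and its upper limit above those of mouse 1. Complex I took a median of 0.978% in mouse 1 and 0.788% in mouse 2, complex V 0.846% and 0.687%, complex IV 0.629% and 0.534%, complex III 0.395% and 0.259%, and complex II 0.0827% and 0.0600%. The order of the complexes was the same in both mice, and their ranges overlapped. The number of members at 1 TPM or more in a cell was 37, 69 and 82 (lowest, median and highest) in mouse 1 and 33, 66 and 85 in mouse 2.

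Cells were divided by 3 genes, each at 1000 TPM or more and taken in this order: H2-Aa, a class II antigen-presentation gene; S100a8, a neutrophil granule-stage gene; and Mpo, myeloperoxidase of granulocyte-monocyte progenitors. Mouse 1 had 14 class II-high, 1 S100a8-high, 13 Mpo-high and 20 remaining cells, and mouse 2 had 20, 10, 12 and 6. In 4 cells 2 thresholds were passed, among them the S100a8-high cell of mouse 1 and 2 of the 10 of mouse 2, which also passed Mpo. Marker lists were read in each state. The class II, granule and granulocyte-monocyte progenitor lists each hold the gene that set their state, so part of each result there was fixed by the threshold. In mouse 1, H2-Aa alone had a median of 28826 TPM in class II-high cells, and Mpo alone 5357 TPM in Mpo-high cells. All 8 class II and dendritic markers reached 10 TPM in at least 50% of the class II-high cells of either mouse, and the median of their summed level there was 85998 and 85506 TPM, against 36.9 and 52.3 TPM in the remaining cells. The 6 granule markers had a median sum of 423150 TPM in the S100a8-high cells of mouse 2, but a sum of 1578 TPM in the S100a8-high cell of mouse 1. In that cell 2 of 6 granule markers reached 10 TPM, while all 5 markers of granulocyte-monocyte progenitors did, so its markers go against its name. The 5 progenitor markers had median sums of 9504 and 13545 TPM in the Mpo-high cells of mouse 1 and mouse 2, against 681 and 506 TPM in the remaining cells. The 6 stem and progenitor markers did not set the remaining cells apart from the Mpo-high cells: their median sums were 5484.5 and 9659 TPM in the remaining and 5975 and 4235 TPM in the Mpo-high cells, against 44.4 and 32.2 TPM in class II-high cells. Ptprc, the pan-leukocyte CD45 gene, reached 10 TPM in 43 and 44 of 48 cells, and Kit, the target of the beads, in 33 and 22. Spi1, the other gene of the leukocyte list, did so in 11 and 16 of 48 cells. B cell markers summed to at most 2.80 TPM in any cell. T and NK cell markers had a median sum of 0 TPM in every state. They reached 499 TPM in an S100a8-high cell of mouse 2 and 121 TPM in a remaining cell of mouse 1. Other lists moved with the states. The 4 erythroid markers had median sums of 708 and 197 TPM in the remaining cells of mouse 1 and mouse 2 (highest 7883 TPM), against 0.780 and 0 TPM in class II-high, 5.77 and 0.910 TPM in Mpo-high and 0 TPM in the S100a8-high cells of mouse 2. The 10 G2/M markers had medians of 2.66 and 2.10 TPM in class II-high, 256 and 438 TPM in Mpo-high and 11.5 and 211 TPM in remaining cells, and 782 TPM in the S100a8-high cells of mouse 2. The 4 basophil and mast cell markers had medians of 229.9 and 199 TPM in Mpo-high cells and of 1.81 and 0 TPM in remaining cells, and the 3 megakaryocyte markers reached 23049 TPM in a remaining cell of mouse 1 with a median of 0.250 TPM there. The part of these lists in the results was not tested.

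With all genes kept, the share of TPM in the 89 genes ranked class II-high, remaining and Mpo-high cells in the same order in both mice, from lowest to highest median. The order depends on what is counted: without each cell's 10 most abundant genes, the class II-high median of mouse 1 was 3.50%. In mouse 1 the lowest, median and highest share were 1.83%, 2.72% and 3.71% in class II-high cells, 2.25%, 3.11% and 3.90% in Mpo-high cells and 2.15%, 2.87% and 4.43% in remaining cells. In mouse 2 they were 1.32%, 2.19% and 4.18% in class II-high cells, 2.07%, 3.53% and 5.05% in Mpo-high cells and 1.82%, 3.12% and 4.12% in remaining cells. Every pair of these ranges overlapped: 1 of 14 class II-high cells of mouse 1 and 4 of 20 of mouse 2 lay below the lowest remaining cell of their mouse. The S100a8-high cells of mouse 2 had 1.17%, 1.59% and 4.10%, and 6 of these 10 cells lay below the lowest remaining cell. The S100a8-high cell of mouse 1 had 3.11%.

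**Figure D2:**
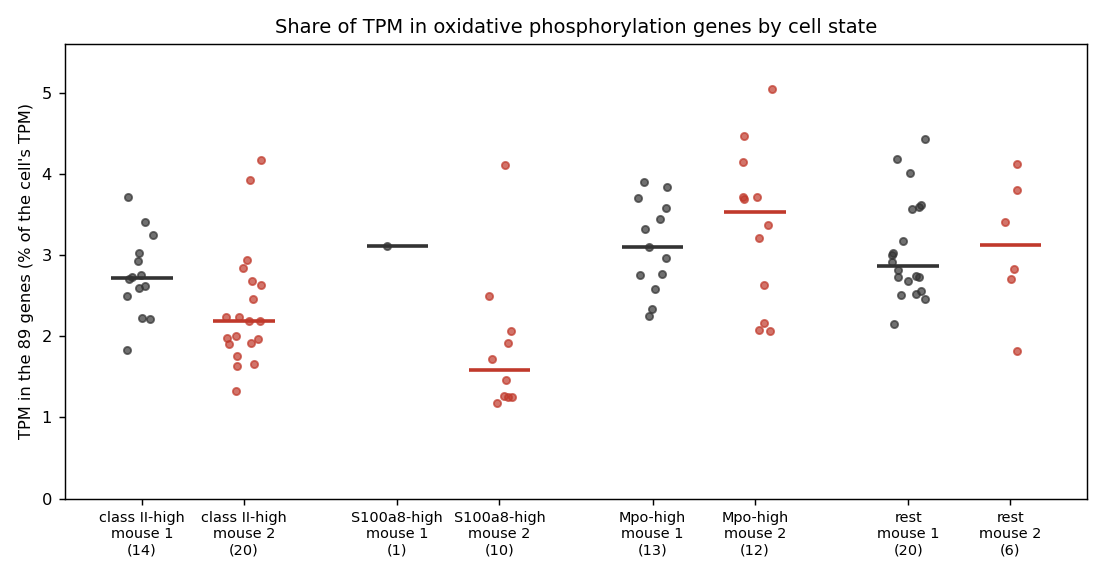
Share of each cell's TPM in the 89 genes (percent), with 1 point per cell, the median of the group as a bar, and the number of cells in brackets; mouse 1 is dark grey and mouse 2 red. The S100a8-high cells of mouse 2 have the lowest median, 1.59%, with 1 cell at 4.10%, and the ranges of the other states overlap.

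That share is relative to whatever else a cell expresses. In 8 of the 10 S100a8-high cells of mouse 2, between 40.5% and 59.2% of TPM lay in the 10 most abundant genes, and in the other 2, which also passed Mpo, 27.4% and 16.4%. With each cell's 10 most abundant genes left out, the median share of the S100a8-high cells was 3.23% instead of 1.59%, beside 3.44% instead of 3.12% in the remaining cells of mouse 2. Gene by gene in that setting, S100a8-high minus remaining cells still had a members' median of -0.85 on the log2(TPM + 1) scale. Lower by 1 or more were 40 of 89 (44.9%), against 50.7% of genes at 100 TPM or more, whose median was -1.04. Class II-high cells also had a median of 22.4% (mouse 1) and 24.2% (mouse 2) in their 10 leading genes, against 8.99% and 9.53% in the remaining cells. Within a cell, less RNA of the 89 genes and more RNA of other genes cannot be told apart by such a share.

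**Figure D3:**
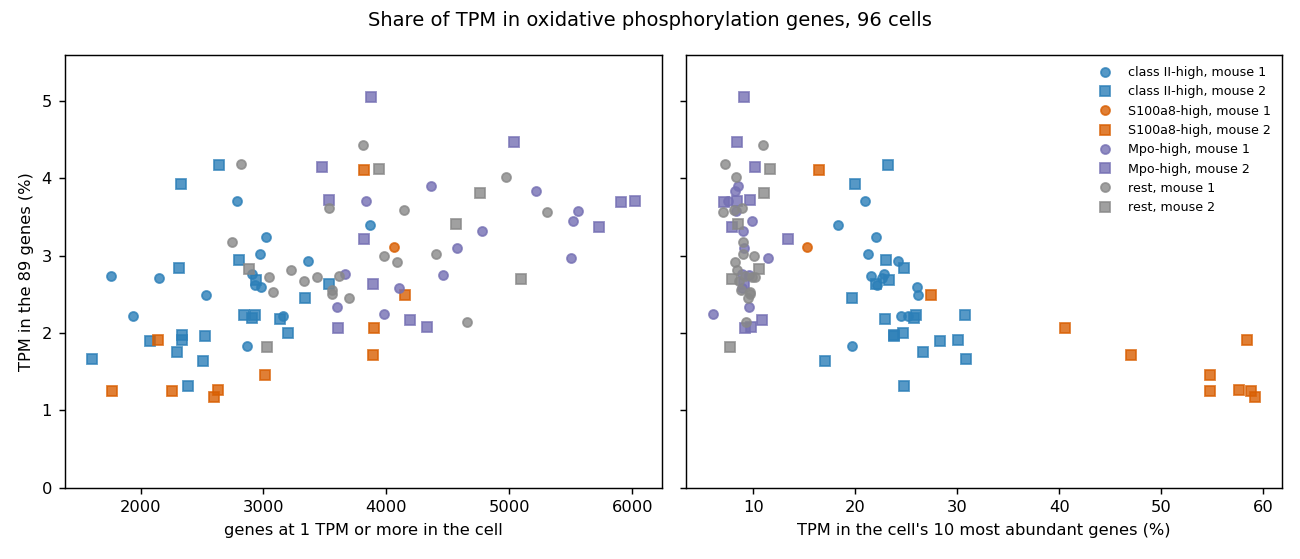
Share of TPM in the 89 genes (percent) for each of the 96 cells against its count of detected genes, those at 1 TPM or more (left) and against the percent of TPM in its 10 most abundant genes (right); colours mark states, circles mouse 1 and squares mouse 2. In the right panel 8 of the 10 S100a8-high cells of mouse 2 lie to the right, from 40.5% to 59.2%, and low, and the other 2 lie at 27.4% and 16.4%, the latter with a share of 4.10%; class II-high cells have few detected genes in the left panel.

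Between the mice, most members were lower in mouse 2, by about as much as other abundant genes. The difference, mouse 2 minus mouse 1 of the mean log2(TPM + 1) over 48 cells, was below 0 for 75 of 89 members, with a median of -0.65 and a range from -2.61 to 0.63. It was below 0 for 7422 of 11015 genes at a mean of 1 TPM or more and for 1194 of 1497 at 100 TPM or more. Of the 89, 23 were lower by 1 or more (25.8%), against 11.6% of all genes at a mean of 1 TPM or more and 35.2% of those at 100 TPM or more. None was higher by 1 or more, against 1.59% of all genes. The median over all genes at 1 TPM or more was -0.20 and over those at 100 TPM or more -0.70, and 69 members at that level had a median of -0.76. The members' median was thus near that of the abundant genes. Without the S100a8-high cells the members' median was -0.51 and 12 were lower by 1 or more.

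By complex, the median difference was -0.67 in complex I, -0.64 in complex II, -0.99 in complex III, -0.67 in complex IV and -0.80 in complex V, and the 11 genes that are not subunits had -0.48. All 8 subunits of complex III were lower in mouse 2, 4 of them by 1 or more, as were 32 of 37 in complex I, 3 of 4 in complex II, 11 of 14 in complex IV and 14 of 15 in complex V. Differences within a complex were wider than those between complexes, from -2.61 to 0.55 in complex I alone.

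**Figure D4:**
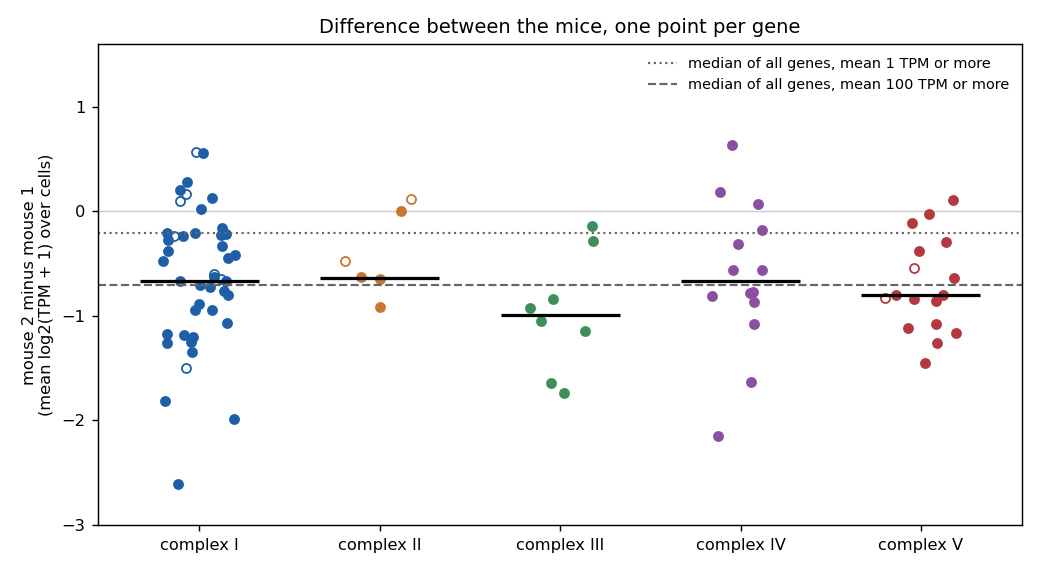
Difference of mean log2(TPM + 1), mouse 2 minus mouse 1, with 1 point per gene, filled for subunits and open for the 11 genes that are not subunits; bars are the medians of the subunits, and the lines mark the medians of all genes at 1 TPM or more (-0.20) and at 100 TPM or more (-0.70). The medians of the complexes lie between -0.64 and -0.99, near the line of the abundant genes.

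The widest difference belonged to Ndufv1, the flavoprotein of complex I that takes electrons from NADH. It had 0, 57.1 and 868 TPM (lowest, median and highest) in mouse 1 and 0, 0.605 and 587 TPM in mouse 2. It reached 10 TPM in 27 of 48 cells of mouse 1 and 10 of 48 of mouse 2, a difference of -2.61 against a standard deviation over cells of 3.82 and 2.47. For the other 88 members the difference was smaller than the standard deviation over cells in both mice. Ndufc2, a membrane-arm subunit of complex I, had 0, 332 and 925 TPM in mouse 1 and 0, 131 and 994 TPM in mouse 2, a difference of -1.99. In complex III, Uqcrc2, a core protein, had medians of 184 and 30.7 TPM and a difference of -1.74, and Uqcr11, a small accessory subunit, had medians of 501 and 286 TPM and -1.64. Their cells overlapped throughout: Uqcrc2 reached 1113 TPM in mouse 1 and 1288 TPM in mouse 2.

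In complex IV the widest differences were those of Cox6b2, at -2.15, and of Cox7a2l, at -1.63, whose medians were 331 TPM in mouse 1 and 146 TPM in mouse 2. In complex V they were those of Atp5j2 and Atp5h, membrane-side and peripheral-stalk subunits, at -1.45 and -1.26, with medians of 423 and 578 TPM in mouse 1 and of 257 and 291 TPM in mouse 2. In complex II, Sdhd and Sdhc differed by -0.92 and -0.65. Cox7a2 was the member furthest in the other direction, at 0.63, with medians of 147 and 252 TPM.

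The mice were also compared within each state. In class II-high cells the members' median was -0.62 and 67 of 89 were lower in mouse 2, where 975 of 1497 genes at 100 TPM or more were lower and had a median of -0.32. In Mpo-high cells the members' median was -0.03, with 45 lower, where 814 of the 1497 genes were lower and had a median of -0.09. In the remaining cells the members' median was 0.13, with 38 lower, where 772 of the 1497 genes were lower and had a median of -0.05. S100a8-high cells were not compared, since mouse 1 had 1. Complex I had -0.90 in class II-high cells, -0.15 in Mpo-high cells and 0.05 in remaining cells. Whether these 3 values differ from each other was not tested, and the remaining cells of mouse 2 were 6.

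On the log2(TPM + 1) scale, class II-high cells had lower means of most members than the remaining cells of their own mouse. The median of state minus rest was -0.86 in mouse 1, with 67 of 89 members lower, and -1.38 in mouse 2, with 74 lower. Of the 1497 genes at 100 TPM or more, 1055 were lower in the class II-high cells of mouse 1 and 1079 in those of mouse 2. Lower in both mice were 60 members (67.4%), against 61.5% of those 1497 genes. Higher in both were 8 members (8.99%), against 18.97% of the same genes. Lower by 1 or more in both mice were 24 members, against 19.3% of all genes and 39.3% of those at 100 TPM or more, and of the 69 members at that level 20 did so. Of the 24, 14 were among the 37 subunits of complex I (37.8%), near the 39.3% of genes at 100 TPM or more. In complex II 2 of 4 were lower in this way, in complex III 1 of 8, in complex IV 2 of 14 and in complex V 3 of 15. Complex I had medians of -1.02 and -2.09 (mouse 1 and mouse 2), complex II -1.52 and -0.90, complex III -0.29 and -1.41, complex IV -0.34 and -0.70 and complex V -0.47 and -1.70. All genes at 100 TPM or more had -0.99 and -1.34 in the same comparison.

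Sdhc, the large membrane anchor of complex II, had the lowest mean difference, -4.15 in mouse 1 and -4.17 in mouse 2. Its lowest, median and highest value were 0, 0 and 157 TPM in the class II-high cells of mouse 1, of which 3 of 14 reached 10 TPM, and 0, 138 and 519 TPM in the remaining cells, of which 15 of 20 did. In mouse 2 it had 0, 1.21 and 561 TPM in class II-high cells, with 8 of 20 at 10 TPM, and 51.5, 137.5 and 458 TPM in the remaining cells, with 6 of 6. Cox6b2 was listed at 0 in all 14 class II-high cells of mouse 1, while 15 of 20 remaining cells reached 10 TPM; in mouse 2, 1 of 20 and 2 of 6 cells did so. Ndufc2 differed by -3.33 in both mice, with medians of 104 against 438 TPM in mouse 1 and of 2.12 against 136 TPM in mouse 2. The opposite direction was led by Ndufa13, a complex I subunit also known as Grim19, at 1.71 and 0.57. It was at 41.4 TPM or more in all 14 class II-high cells of mouse 1, with a median of 216 TPM against 75.99 TPM in the remaining cells, and at 207 against 92.3 TPM in mouse 2. Cox7a2l (1.48 and 0.12) and Cox7c (1.13 and 0.40), a small subunit of complex IV, followed.

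**Figure D5:**
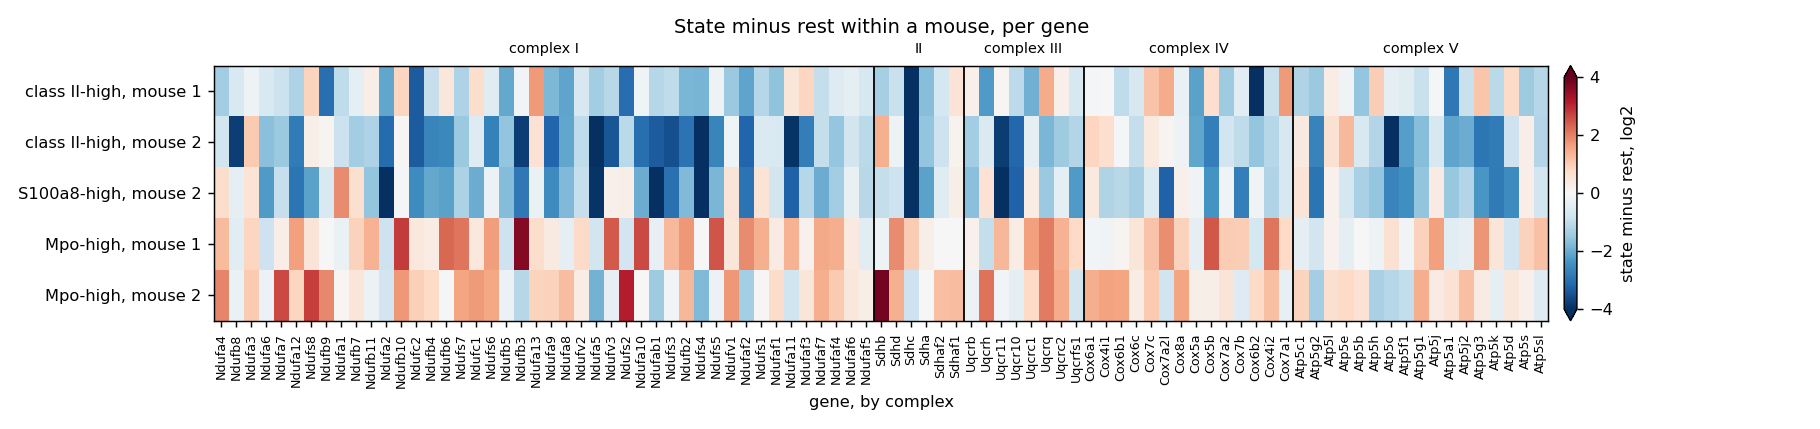
Difference of mean log2(TPM + 1), state minus remaining cells of the same mouse, for each of the 89 genes (columns, by complex) in 5 comparisons (rows); blue is lower in the state and red higher, and the scale stops at 4 either way. The class II-high and S100a8-high rows are mostly blue, with medians from -0.86 to -1.38, and the Mpo-high rows mostly red, with medians of 0.50 and 0.48.

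The S100a8-high cells of mouse 2 had a members' median of -1.30 against the remaining cells, with 72 of 89 lower. Of the genes at 100 TPM or more, 1130 of 1497 were lower. Lower by 1 or more were 52 members (58.4%), against 36.1% of all genes and 59.9% of those at 100 TPM or more, whose median was -1.54. Without the 2 cells that also passed Mpo the members' median was -1.81 and 54 were lower by 1 or more. The complexes' medians were -1.76, -1.54, -1.57, -0.87 and -1.55 from complex I to complex V. Uqcr11 was the lowest, at -4.48, with 0, 54.1 and 1489 TPM in the S100a8-high cells and 223, 742 and 1839.5 TPM in the remaining cells, so that 4 of 10 cells against 0 of 6 lay under 10 TPM. Ndufa2 and Ndufs4, subunits of complex I of which the latter is a known Leigh syndrome gene in humans, were lower by 4.13 and 4.10 (medians of 85.2 against 418 TPM and of 0.555 against 124 TPM). Higher by 1 or more was 1 member (1.12%), against 10.3% of all genes and 13.4% of those at 100 TPM or more. With each cell's 10 most abundant genes left out, 10 members (11.2%) were, against 13.9% and 19.6%. The 1 member was Ndufa1, at 1.90. It reached 10 TPM in 10 of 10 cells, with 47.8, 570.3 and 1751 TPM, against 3.20, 188 and 676 TPM in the remaining cells. Ndufa4 and Ndufb7 followed at 0.69 and 0.65.

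On the log2(TPM + 1) scale, Mpo-high cells had higher means of most members, as they had of most abundant genes. The members' median was 0.50 in mouse 1, with 62 of 89 higher, and 0.48 in mouse 2, with 58 higher, and 40 members were higher in both mice (44.9%), against 46.2% of all genes at 100 TPM or more. Opposite signs in the mice were found for 39 members, and for 582 of the 1497 genes. Higher by 1 or more in both were 12 members, against 7.57% of all genes and 16.4% of those at 100 TPM or more. All genes at 100 TPM or more had medians of 0.48 and 0.41. Complex I had 0.70 and 0.48, complex II 0.62 and 0.70, complex III 1.07 and 0.34, complex IV 0.86 and 0.65, and complex V -0.11 and 0.45. Ndufb10, a membrane-arm subunit, led with 2.78 and 1.75, reaching 10 TPM in 12 of 13 Mpo-high against 12 of 20 remaining cells of mouse 1 and in 10 of 12 against 3 of 6 of mouse 2. Its mean TPM was higher in Mpo-high cells in mouse 1 (354 against 249 TPM) and lower in mouse 2 (243 against 358 TPM). Uqcrq, a small subunit of complex III, had 2.07 in both, with medians of 486 against 111 TPM in mouse 1 and of 409.9 against 119 TPM in mouse 2. Ndufs7, which carries the last iron-sulfur centre before coenzyme Q, had 2.13 and 1.58. At the other end were Ndufa5 (-0.72 and -1.88), Atp5g2 (-0.72 and -1.35) and Ndufab1, the mitochondrial acyl carrier protein (-0.33 and -1.41). Sdhb showed how far the mice could part: it differed by -0.20 in mouse 1 and 3.84 in mouse 2.

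The count of detected genes in a cell, those at 1 TPM or more, moved with these states. Its median was 2921.5 in the class II-high cells of mouse 1, 4463 in Mpo-high and 3587.5 in remaining cells, and in mouse 2 it was 2581 in class II-high, 2821 in S100a8-high, 4041 in Mpo-high and 4251.5 in remaining cells. With that number removed by a linear fit, the members' median was 0.25 in the class II-high cells of mouse 1 and 0.06 in those of mouse 2, so the direction turned, and -0.23 in the S100a8-high cells. For the Mpo-high cells it was -0.20 and 0.09, and for the difference between the mice -0.26. Genes at 100 TPM or more also moved toward 0 in class II-high cells, to -0.11 and 0.10, and in S100a8-high cells, to -0.63. Their medians were -0.23 and 0.11 in Mpo-high cells and -0.36 between the mice. Among cells with 2500 to 4000 detected genes the class II-high medians were 0.02 and -0.14 and the S100a8-high median -0.00217, from 11, 12 and 6 such cells against 14 remaining cells in mouse 1 and 3 in mouse 2. Sdhc kept its direction after the fit, at -2.43 and -1.64 in class II-high and -2.10 in S100a8-high cells, as did Ndufa1 at 2.71 in S100a8-high and Uqcr11 at -2.78. Ndufv1 had -2.02 between the mice after the fit.

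Members varied together from cell to cell only weakly, too weakly to be read as a finding in values this sparse. Averaged over pairs of members and taken across 48 cells, Spearman's rho was 0.0797 in mouse 1 and 0.182 in mouse 2, and 0.0562 and 0.0522 with the number of detected genes removed. Within complexes I to V it was 0.0906, 0.140, 0.0552, 0.0438 and 0.0703 in mouse 1 and 0.181, 0.255, 0.245, 0.201 and 0.190 in mouse 2. In the same cells mitochondrial ribosomal protein genes had 0.0957 and 0.202, and glycolysis genes 0.118 and 0.172. Cytosolic ribosomal protein genes had 0.274 and 0.512, and 0.244 and 0.507 with the number of detected genes removed. In the remaining cells alone they had 0.104 and 0.239, and the members 0.0575 and 0.104. Ranked by the lower of their values in the 2 mice, the members that went most with the others were Ndufaf2, an assembly factor (0.180 and 0.193), Uqcr11 (0.167 and 0.298) and Cox7a2 (0.153 and 0.165), and ranked by the higher, those that did so least were Ndufaf7 (0.0447 and 0.0413), Ndufa1 (0.0814 and -0.00324) and Ndufs1 (0.0557 and 0.0840). These correlations share libraries and depth, and all shares sum to the same total. Within a state, the members' share went with the mitochondrial ribosomal share at a Spearman rho of 0.565 (Pearson r 0.436) over 14 class II-high, 0.516 (r 0.662) over 13 Mpo-high and 0.438 (r 0.621) over 20 remaining cells of mouse 1, and at 0.344 (r 0.298) over 20 class II-high and 0.601 (r 0.581) over 12 Mpo-high cells of mouse 2. Other lists gave values as far from 0: the share in G2/M markers had a rho of 0.640 (r 0.711) over the same 14 class II-high cells and 0.608 (r 0.425) over the 12 Mpo-high cells of mouse 2, where the glycolytic share had -0.615 (r -0.543).

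Other genes of the pathway were described from fixed lists by the same measures. As background, 7422 of 11015 genes at 1 TPM or more were lower in mouse 2, and 11.6% were lower by 1 or more. Of the genes at 100 TPM or more, 1194 of 1497 were lower, and 35.2% by 1 or more. The medians of these 2 groups were -0.20 and -0.70. The 4 genes of the system that the symbols miss, namely the subunits Cyc1 and Usmg5, the electron carrier cytochrome c (Cycs) and Atpif1, were all lower in mouse 2, with a median of -0.32 and 1 lower by 1 or more, Cyc1, the haem subunit of complex III, at -1.48. Atpif1, the inhibitor of the ATP synthase, was as abundant as the leading members at 1005 TPM, and was lower by 3.19 in S100a8-high cells; Usmg5, a small ATP synthase subunit, had 495 TPM. Of the 4, 1 was lower by 1 or more in the class II-high cells of both mice, against 19.3% of all genes. In the Mpo-high cells of both, 0 were higher by 1 or more, against 7.57% of all genes.

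Of 29 assembly factors at 1 TPM or more, 21 were lower in mouse 2, 5 by 1 or more, and 1 was higher by 1 or more, with a median of -0.08. Of all genes 11.6% were lower and 1.59% higher by 1 or more, and of those at 100 TPM or more 35.2% and 5.54% were. The widest were Coa3, at -2.04 the most abundant of the list with 217 TPM, and Cox20, at -1.98, both factors of complex IV. Coa3 was also lower in class II-high cells, by 2.32 and 6.54, and in S100a8-high cells, by 4.88. Cox17, a copper chaperone, had 198 TPM and a difference of -1.11 between the mice, and was higher in class II-high cells, at 1.76 and 0.47. In class II-high cells 8 of 29 (27.6%) were lower by 1 or more in both mice, near the 27.6% of all genes at a mean of 10 TPM or more. In Mpo-high cells 3 (10.3%) were higher by 1 or more in both, near the 11.1% of those genes.

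The citric acid cycle, which feeds both complex I and complex II, had 13 genes. In the class II-high cells 10 of the 13 were lower by 1 or more in both mice, against 19.3% of all genes and 39.3% of those at 100 TPM or more, with medians of -1.39 and -2.40. In the S100a8-high cells 9 were, against 36.1% and 59.9%, with a median of -2.10. Between the mice 12 of 13 were lower in mouse 2, where 1194 of 1497 genes at 100 TPM or more were, with a median of -0.97. Lower by 1 or more were 6, against 11.6% of all genes and 35.2% of those at 100 TPM or more. Idh3g, a regulatory subunit of isocitrate dehydrogenase, was at -3.34, -3.58 and -5.41 in the class II-high cells of mouse 1 and mouse 2 and in the S100a8-high cells, and at -1.70 between the mice. Suclg1, of succinyl-CoA ligase, was at -3.16, -3.13, -2.04 and -1.70 in the same order, and Mdh2, the most abundant of the list at 678 TPM, at -1.16, -2.29, -0.78 and -0.96. In Mpo-high cells 0 of 13 were higher by 1 or more in both mice, against 7.57% of all genes. The counts of this list were not recomputed with the detected-gene number removed, a setting in which the members' count in class II-high cells fell.

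Of 9 coenzyme Q genes, 7 were lower in mouse 2, with a median of -0.52. Lower by 1 or more were 3, against 11.6% of all genes and 35.2% of those at 100 TPM or more. Coq9 and Coq7, partners in the same hydroxylation step, had -1.29 and -1.61 at means of 53.5 and 47.03 TPM. In class II-high cells 2 of 9 (22.2%) were lower by 1 or more in both mice, near the 19.3% of all genes, and 4 of 9 (44.4%) were in the S100a8-high cells, where 36.1% of all genes were. The 9 regulators at 1 TPM or more were low, led by Tfb2m, a mitochondrial transcription factor, at 37.97 TPM and Yy1 at 25.2 TPM, and Ppargc1a, a coactivator of mitochondrial genes, was listed at 0 in every cell. Of the 9, 6 were lower in mouse 2, with a median of -0.32, where 7422 of all 11015 genes were lower. Tfam, which packages and transcribes mitochondrial DNA, was the widest at -1.64. It reached 10 TPM in 24 of 48 cells of mouse 1 and 6 of 48 of mouse 2. Gabpa, the ETS factor of GABP, had -0.58 at 14.5 TPM. In class II-high cells 1 of 9 was lower by 1 or more in both mice, against 19.3% of all genes. In Mpo-high cells 0 were higher by 1 or more in both, against 7.57% of all genes.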

How the data were processed

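Each GEO sample was 1 cell, grouped by mouse as the labels give it. The values used throughout were TPM, deposited by the authors and named as RSEM output; every cell summed to 1000000. For 9310 genes, 80 of them members, the authors also deposited RPKM, in which read numbers are divided by transcript length and library size. Of the members' RPKM values, 81% lay at a lowest value shared by at least 2 cells, so that table served as an alternative alone. TopHat2, RSEM, Bowtie2, mm10 and mm9 are named in the submitters' processing notes, with no role or version. Sequencing depth is unknown, and 0 columns were without a sample.

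Means over cells of log2(TPM + 1) were compared with pandas 2.3.3 and numpy 2.4.6; this scale understates the change of low genes. The calculation of these differences was checked on simulated data. With 1 animal a side no test was run. A difference of 1 or more on the log2 scale was counted and set beside the share of all genes that did so. No doublet caller was run. Named genes were, within each complex, the members highest in level and in mouse difference, the extremes of each state, paralog families, complex II, the genes next to the limit, the extremes of correlation, and the leading genes of each list. The members and lists were chosen with earlier results of these data known. Alternatives changed the pseudocount, the filter, the scaling, the state threshold, the table and the cells used.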

Additional observations from a re-analysis of the deposited data

Results flagged for a closer look

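Among the 10 S100a8-high cells of mouse 2, cell 86 stood apart from the others in its share of TPM in the 89 genes, 4.105%, where the next cell had 2.49%, and in its share in complex IV subunits, 1.035%. The gap to the nearest cell was wide for the range of the group in these 2 of the 12 groups of values looked at, and chance alone flags about 1 in 20 groups. The same cell also passed the Mpo threshold, at 20561 TPM of Mpo and 26570 TPM of S100a8, and had 16.4% of its TPM in 10 genes, the lowest of the 10 cells. The part of these values in its share was not tested.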

How the results depend on the processing

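In all, 712 values were recomputed under 17 settings, 3 of them added after seeing the data, and 651 stayed within the spread over cells or genes, or within 1.5 times for a count. Of the 712, 505 were medians of single complexes, of which 476 stayed, and 207 were values of all members, of which 175 stayed. A median near 0 could change sign and still count as within the spread. The members' median difference between the mice stayed below 0 in each setting, from -0.82 to -0.01. Counts of members past a log2 difference of 1 moved most. The count lower in mouse 2 (23) was 10 with a pseudocount of 10, 7 when centred on widely detected genes (3 then higher), 9 with the detected-gene number removed (1 then higher), 3 in the RPKM table, 5 as a log2 ratio of mean TPM and 12 without the S100a8-high cells. The count lower in class II-high cells of both mice (24) was 12, 4, 1, 1 and 11 under the first 5 of these and 7 among cells with 2500 to 4000 genes. The count higher in Mpo-high cells (12) was 4, 6, 1, 0 and 0 under the same 5. The count lower in S100a8-high cells (52) was 22 centred, 25 with the detected-gene number removed, 4 in the RPKM table and 25 among cells with 2500 to 4000 genes.

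With the detected-gene number removed, the class II-high medians were 0.25 and 0.0608 over all members, 0.37 for complex I in mouse 1 and 0.14 for complex III in mouse 2. Genes at 100 TPM or more then had -0.11 in mouse 1 and 0.10 in mouse 2. Centred, the S100a8-high median was 0.0324. In the RPKM table, where most values lie at a shared lowest value, the class II-high median of mouse 2 was 0, complex II in class II-high cells of mouse 1 was 0.0141, and complexes II and V in S100a8-high cells were 0.0398 and 0.0798. Among cells with 2500 to 4000 genes, the class II-high median of mouse 2 was -0.14, complex I in class II-high cells of mouse 1 was 0.0662, complex III in those of mouse 2 was 0.39 and complex I in S100a8-high cells was 0.0784. Left without each cell's 10 most abundant genes, the median shares were 3.50% in the class II-high cells of mouse 1 and 3.23% in the S100a8-high cells. The mean correlation in mouse 2 was 0.0522 with the detected-gene number removed and 0.104 in the 6 remaining cells. Apart from what each setting leaves out by its own construction, the cause was not tested. No paired analysis was possible because the result comes from no test and the mice share no replicate number.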

Other observations

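Gene groups outside the pathway were read in the same cells. The 81 cytosolic ribosomal protein genes at 1 TPM or more had a median of -3.31 in the S100a8-high cells of mouse 2 against the remaining cells, 80 of them lower by 1 or more (against 36.1% of all genes and 59.9% of those at 100 TPM or more), where the 89 oxidative phosphorylation genes had -1.30. Their summed share of TPM had a median of 2.28% in the S100a8-high cells and 20.2% in the remaining cells. The 16 glycolysis genes had a median of 0.63 in the same comparison, with 10 higher and 6 lower, and their summed share had a median of 1.01% against 0.576%. In Mpo-high cells 7 of the 16 glycolysis genes and 14 of 77 mitochondrial ribosomal protein genes were higher by 1 or more in both mice, and 0 of 81 cytosolic ribosomal protein genes were, against 7.57% of all genes and 16.4% of those at 100 TPM or more. The differences between these groups were not tested.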
